A study of Mus musculus with 6 samples.

Results

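A set of 7 secreted proteins, protease inhibitors and antimicrobial proteins, was followed in organoids of mouse esophageal epithelium: Wfdc2, Wfdc12, Wfdc18, Slpi, Lcn2, S100a8 and S100a9. These 7 genes of the 32285 in the deposited tables were chosen by name, after earlier results of these cells had shown some of them to vary, so their p-values below set a difference against the spread between libraries and are not independent evidence for it. Cells with at least 500 detected genes were kept, 25154 of 26808 barcodes. A cell was called Krt13-low where its deposited Krt13 value was below 3 (15202 cells) and Krt13-high at 3 or more (9952 cells). Krt13 is a keratin of suprabasal esophageal cells, so the layers stand for less and more differentiated keratinocytes.

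All organoids were founded by live esophageal cells of C57BL6 mice that stained for integrin-b1, which basal cells carry on their surface, and were grown for 15 days in Matrigel in a medium with EGF, Noggin, R-spondin and a ROCK inhibitor. The founders had either a low or a high signal for Cyto-ID, a dye of autophagic vesicles, and each group gave 3 single-cell libraries, labelled F2, M3 and F6. The series' title describes basal cells rich in such vesicles as slow to divide and apt to renew themselves. The labels do not say that the libraries of a group came from separate animals, so the tests measure the spread between these libraries, which may be technical. The founders were sorted on the dye, but the profiled cells are their descendants, and their own dye signal was not analysed here. Libraries of Cyto-ID Low and Cyto-ID High founders are called Low and High libraries, and where 3 values stand in a row they are those of F2, M3 and F6, in this order.

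The stratified epithelium of the esophagus renews from a basal layer, and its cells secrete antiproteases and antimicrobial proteins onto the surface as they differentiate. Proteins with the whey acidic protein (WAP) four-disulfide core are small, disulfide-rich and secreted, and the best known of them block serine proteases. Slpi inhibits neutrophil elastase and cathepsin G. Wfdc2, also called HE4, is made by many lining epithelia. Lcn2 starves bacteria of iron by binding their siderophores. S100a8 and S100a9 pair to form calprotectin, which withholds zinc and manganese from microbes and is abundant in neutrophils and in stressed squamous epithelium.

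On GRCm38 (GENCODE vM21), 4 of the members are on chromosome 2. Wfdc12 is at chr2:164189231-164190608 on the minus strand with 3 exons, Slpi at chr2:164354070-164389095 on the minus strand with 4 exons, and Wfdc2 at chr2:164562413-164568510 on the plus strand with 5 exons, counted in the longest transcript. Wfdc12 ends 163 kb before Slpi starts, and Slpi lies 173 kb from Wfdc2. Lcn2 is far from them, at chr2:32384633-32388252 on the minus strand. S100a8 (chr3:90668978-90670035, plus strand) and S100a9 (chr3:90692632-90695721, minus strand) lie 22.6 kb apart, and Wfdc18 is at chr11:83709015-83711348 on the plus strand.

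Stretches of promoter are shown for Wfdc12, Slpi and S100a9, the members that were most above their Krt13-low level in Krt13-high cells. C/EBP factors, for which the motif TTGCNNAA was searched, are transcription factors of squamous and myeloid differentiation. The motif was found on either strand in the 250 bases before the start site of 4 of the 7 members, namely Wfdc12, Slpi, S100a9 and Lcn2, and in 9.56% of 32851 such windows of RefSeq genes. In all 4 it lay in the far part of the window: none of the 7 held it in the last 150 bases, where 5.46% of windows did. The window of 250 bases was taken after the shorter one had shown no match. Each line gives, 5′ to 3′ on the gene's strand, bases -250 to -151 from the start site in RefSeq's GRCm38.p6 sequence, with the match in capitals.
Wfdc12 (chr2:164190709-164190808, minus strand): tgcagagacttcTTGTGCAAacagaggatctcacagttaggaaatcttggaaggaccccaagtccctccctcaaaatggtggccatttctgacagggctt
Slpi (chr2:164356658-164356757, minus strand): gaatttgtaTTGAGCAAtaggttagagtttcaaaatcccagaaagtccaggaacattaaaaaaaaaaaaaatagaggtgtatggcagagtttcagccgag
S100a9 (chr3:90695872-90695971, minus strand): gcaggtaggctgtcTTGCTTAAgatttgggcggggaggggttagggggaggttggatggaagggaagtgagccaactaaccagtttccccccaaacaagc

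The Slpi stretch lies within the GENCODE span of the gene, whose longest model starts farther upstream. The Lcn2 window, not shown, also lies within its gene's span, and its match falls in an exon of another Lcn2 transcript of GENCODE. TATAAA was found on either strand in Wfdc18 and S100a8 and in 7.59% of windows. TGANTCA (AP-1), TTCNNNGAA (STAT) and the kappaB consensus were found in none of the 7 windows. A match of letters is a description and not a measured binding site.

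The libraries held between 8457489 and 48957523 UMIs (unique molecular identifiers, each standing for 1 captured molecule) and 2667 to 5617 kept cells. The median per kept cell was 7789, 6080 and 2716 UMIs in Low and 10038, 2357 and 1940.5 UMIs in High libraries. High M3 and High F6 were thus the shallowest. Krt13-high cells were the deeper layer in each of the 6 libraries. Libraries shared at most 10 barcodes in any pair. Levels are given as CPM, the UMIs of a gene scaled to a fixed total per cell, averaged over the cells of a library and layer. A 3′ library gives 1 UMI per molecule whatever its length, so CPM were compared between genes without a length correction. The Krt13-high share of kept cells was 41.9%, 45.2% and 43.8% in Low and 29.1%, 50.5% and 27.4% in High libraries. The difference of -7.94 percentage points was within the spread of the libraries (two-sided exact permutation test, p = 0.40, with 0.10 the smallest possible for 3 against 3). Leaving out High M3 widened it to -15.3 points (p = 0.10, exact permutation test, the smallest possible then), and leaving out High F6 narrowed it to -3.82. Of 19 tested suprabasal and superficial markers, all were higher in Krt13-high cells, where 30.6% of all genes tested were, led on the log2 scale by Krt4, the partner keratin of Krt13 (5.68, from 34.6 to 1353 CPM), by Krt13, which defines the layers (5.14), and by the envelope protein Sprr3 (4.90). Of 10 basal markers 7 were lower, where 29.2% of all genes tested were. They were led by the hemidesmosome proteins Col17a1 (-2.10, from 549.4 to 96.6 CPM), Itgb4 (-1.88) and Dst (-1.58). The other 3 went against the label: Sox2, a factor of basal cells, was higher at 0.59, and the basal keratins Krt5 and Krt14 at 0.32 and 0.26, though at -0.095 and -0.15 without the library scaling described next.

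The members did not share a layer. Between Krt13-high and Krt13-low cells of the same library, Wfdc12, Slpi, S100a9 and S100a8 were higher in the Krt13-high layer, Wfdc18 and Lcn2 were lower, and Wfdc2 did not pass the test. All 7 had enough signal to be tested, and their median log2 difference was 0.87, against -0.01 over all 12138 genes tested. Background was high in this contrast, since 30.6% of all genes tested were called higher and 29.2% lower (limma, Benjamini-Hochberg adjusted p under 0.05). Being called in either direction is therefore common, and the sizes say more than the calls. The split also depends on scaling: without the TMM library factors, which correct for a few abundant transcripts taking up the total, 1821 genes were higher and 6960 lower, and the median of all genes was -0.37.

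**Figure D1:**
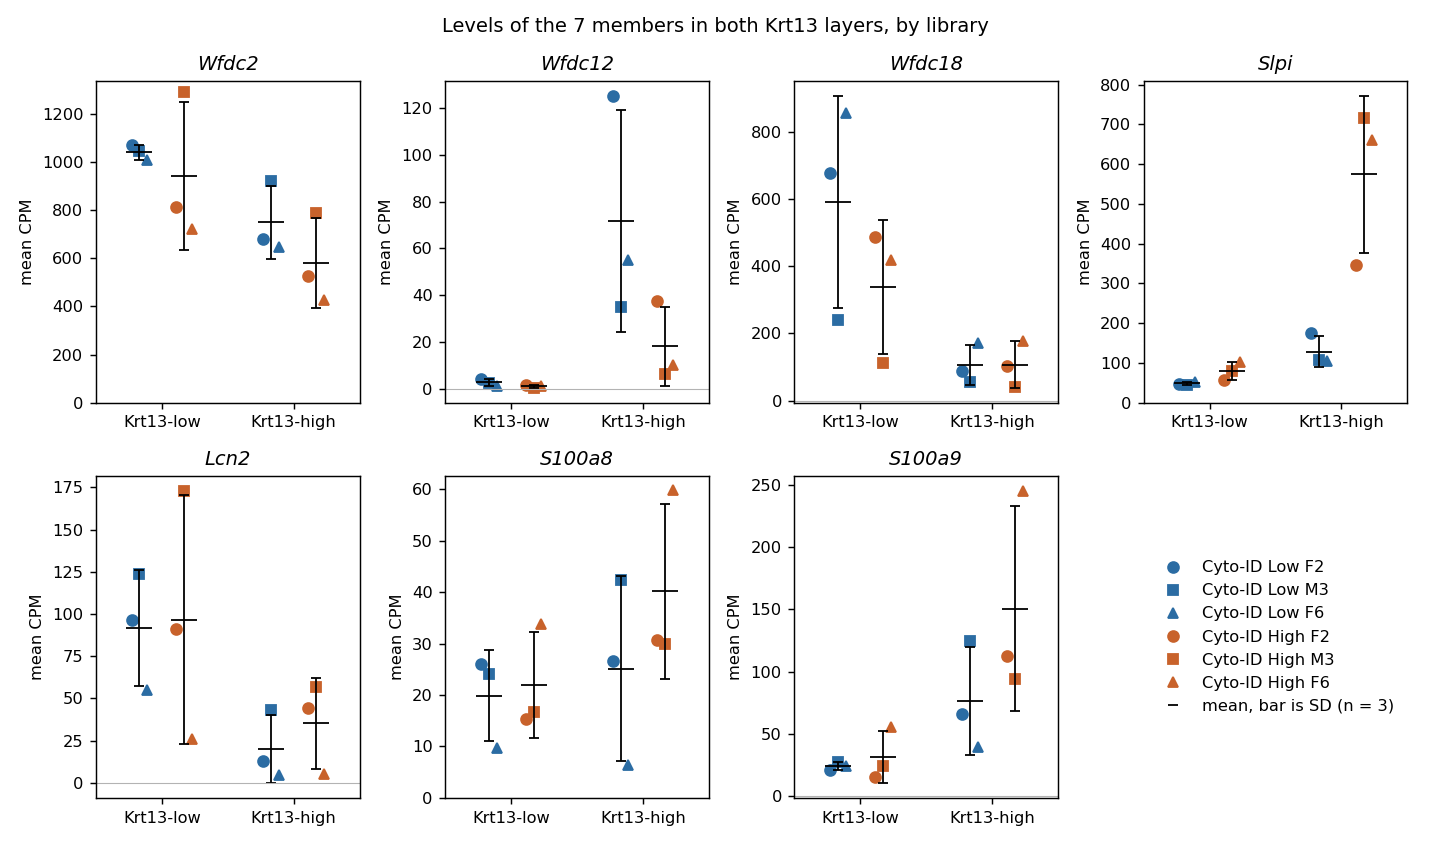
Mean CPM (linear axis) of each member in Krt13-low and Krt13-high cells, with 1 point per library, blue for Cyto-ID Low and orange for Cyto-ID High founders; black marks are group means and bars the SD of 3 libraries. Slpi in Krt13-high cells runs from 104.6 to 174.7 CPM in the Cyto-ID Low libraries and from 347.1 to 715.7 CPM in the Cyto-ID High libraries.

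Over all kept cells Wfdc2 was the most abundant member in each of the 6 libraries. In Krt13-low cells it reached 1070, 1045 and 1009 CPM in the Low libraries and 812.3, 1292 and 720.3 CPM in the High libraries. In Krt13-high cells it reached 680.2, 920.9 and 645.5 CPM and 526.3, 788.4 and 427.9 CPM. The Krt13-high level was lower in each of the 6 libraries in plain CPM, but after TMM scaling the log2 difference was only -0.18 ± 0.07 (SE; limma, adjusted p = 0.0504), and 1 of 6 libraries was higher. It passed in 5 of 18 other settings: without the TMM factors (-0.59, adjusted p = 1.2e-05), from summed UMIs (-0.24), with cells thinned to 1000 UMIs (-0.23), with a Krt13 threshold of 4 (-0.22) and without Low M3 (-0.26). Wfdc2 was also the widest spread: after each cell was thinned to 1000 UMIs, 44.0% to 62.2% of Krt13-low and 27.0% to 46.6% of Krt13-high cells held a Wfdc2 UMI. Over all kept cells it made up 45.1% to 69.3% of the summed CPM of the 7 members, a sum of 1398 to 1715 CPM per library. In Krt13-high cells of High F6 it made up 27.0%, and Slpi was above it.

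Wfdc18, a small WAP protein first described in the mammary gland, belonged to the Krt13-low layer. Krt13-low cells held 676.8, 240.6 and 856.1 CPM in the Low libraries and 486.4, 112.6 and 419.7 CPM in the High libraries. Krt13-high cells held 89.8, 55.98 and 172.3 CPM and 102.3, 39.99 and 179.1 CPM. Wfdc18 was lower in Krt13-high cells in 6 of 6 libraries, with a log2 difference of -1.63 ± 0.15 (SE; limma, adjusted p = 1.26e-06). In both founder groups M3 was the library with the lowest Wfdc18 level in both layers. Among Krt13-low cells thinned to 1000 UMIs, 7.83% to 32.5% held a Wfdc18 UMI.

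Lcn2 also fell with Krt13, from a lower start. Its Krt13-low levels were 96.3, 123.6 and 55.1 CPM in the Low libraries and 90.95, 172.9 and 25.8 CPM in the High libraries. Its Krt13-high levels were 12.7, 43.1 and 4.49 CPM and 44.1, 56.8 and 5.08 CPM. The log2 difference was -1.68 ± 0.23 (SE; limma, adjusted p = 4.19e-05), with the same direction in 6 of 6 libraries. In both founder groups and both layers, M3 was the highest library and F6 the lowest. Few cells carried it: at most 6.25% of Krt13-low cells held a Lcn2 UMI at 1000 UMIs per cell. A single Krt13-high cell held 75.7% of the layer's Lcn2 UMIs in High F2, 57.1% in High F6 (8 of 14 UMIs) and 51.9% in Low F6 (14 of 27).

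Slpi rose with Krt13 in every library. Krt13-low cells held 48.3, 44.5 and 53.2 CPM in the Low libraries and 57.4, 80.6 and 101.9 CPM in the High libraries. Krt13-high cells held 174.7, 106.9 and 104.6 CPM and 347.1, 715.7 and 659.7 CPM. The ratio between layers was 1.97 to 3.62 in the Low and 6.05 to 8.88 in the High libraries. The log2 difference over all 6 was 2.48 ± 0.22 (SE; limma, adjusted p = 8.57e-07).

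Wfdc12, a WAP protein with described antibacterial activity, had a larger layer difference than the other members except with a pseudocount of 10 CPM, where it was at 2.03 and Slpi at 2.30. Krt13-low cells held 4.27, 2.66 and 1.36 CPM in the Low libraries and 1.75, 0.27 and 1.10 CPM in the High libraries. Krt13-high cells held 125.4, 34.8 and 55.2 CPM and 37.7, 6.4 and 10.1 CPM. The log2 difference was 3.86 ± 0.28 (SE; limma, adjusted p = 1.23e-07), higher in 6 of 6 libraries. The Krt13-low levels rest on little: 1 UMI in the High M3 library, 4 UMIs in 1 cell in High F6, and in Low M3 125 of 138 UMIs in 1 cell. In Krt13-high cells, between 7 (High F6) and 175 (Low F2) cells of a library held any Wfdc12 UMI.

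The calprotectin pair differed in slope. S100a9 stood at 20.97, 27.5 and 24.4 CPM in Krt13-low cells of the Low libraries and at 14.9, 23.8 and 55.2 CPM in the High libraries, and at 65.8, 124.5 and 39.3 CPM and 112.7, 94.0 and 245.3 CPM in Krt13-high cells. Its log2 difference was 2.28 ± 0.19 (SE; limma, adjusted p = 3.69e-07), higher in 6 of 6 libraries. S100a8 stood at 25.97, 24.0 and 9.66 CPM and 15.4, 16.6 and 33.9 CPM in Krt13-low cells, and at 26.5, 42.4 and 6.43 CPM and 30.7, 29.9 and 59.8 CPM in Krt13-high cells. Its difference was 0.87 ± 0.16 (SE; limma, adjusted p = 0.00049; 0.48 without the TMM factors, adjusted p = 0.019), higher in 5 of 6 libraries and lower in Low F6, where Krt13-high cells held 26 S100a8 UMIs in all. There were thus 0.38 to 1.11 S100a8 UMIs per S100a9 UMI in Krt13-low cells and 0.15 to 0.36 in Krt13-high cells, with no overlap between the ranges. The gap is narrow: the Krt13-low minimum is that of Low F6, from only 40 S100a8 and 104 S100a9 UMIs. The partners were often not seen in the same cell: of thinned Krt13-high cells with S100a8, 0% (0 of 3 cells, Low F6) to 54.5% also held S100a9, while 2.44% to 11.4% of all thinned Krt13-high cells held S100a9. At this depth a missing partner does not show that it was absent.

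Cells within 0.5 units of a Krt13 value of 3 made up 10.8% to 15.4% of a library, 1759 just below and 1668 just above. Median levels over libraries just below and just above were 183.5 and 130.8 CPM for Wfdc18, 34.6 and 66.9 CPM for S100a9, and 81.6 and 80.2 CPM for Slpi. The Slpi medians hide unlike libraries: just below and just above the boundary Slpi was at 73.0 and 185.9 CPM in High M3 and at 147.6 and 340.7 CPM in High F6, but at 108.8 and 55.0 CPM in Low F6. The Wfdc12 medians were 4.20 and 1.79 CPM, and Low F2 stood apart with 17.2 and 140.3 CPM. At the other threshold, 496 barcodes with at least 450 but under 500 detected genes were left out and 617 with at least 500 but under 550 were kept.

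Dividing the cells into 6 bins of Krt13 showed where in the layers each member was highest. The share of Krt13-low cells with a Krt13 value of 0 was 30.4%, 22.4% and 53.1% in Low and 25.7%, 45.2% and 67.5% in High libraries. The lowest bins may thus not hold like cells in libraries of unlike depth. Slpi in the top bin (Krt13 of 5 or more) reached 684.7, 222.4 and 144.0 CPM in the Low libraries and 1470, 1524 and 1571 CPM in the High libraries. Between 3 and 4 it was 65.1, 50.6 and 66.0 CPM against 114.2, 249.1 and 338.5 CPM, and below 1 it was 47.8, 49.9 and 42.3 CPM against 48.0, 75.2 and 88.3 CPM. Wfdc12 was highest between 4 and 5 in Low F2 (160.5 CPM) and in the High libraries (62.0, 9.06 and 17.5 CPM), and in the top bin in Low M3 and Low F6. The peaks in the High libraries rest on few cells: their Krt13-high layers held 595, 83 and 23 Wfdc12 UMIs, in 38, 22 and 7 cells. In the top bin it was 99.5, 59.6 and 81.2 CPM in the Low and 7.52, 8.98 and 6.80 CPM in the High libraries. As medians over libraries, Wfdc18 was at 562 CPM in the lowest and 33.7 CPM in the highest bin, Lcn2 at 121.7 and 9.08 CPM, and Wfdc2 at 1025 and 539.3 CPM. S100a9 was at 16.4 CPM in the lowest and 164.2 CPM in the highest bin, and S100a8 at 16.3 and 35.7 CPM.

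**Figure D2:**
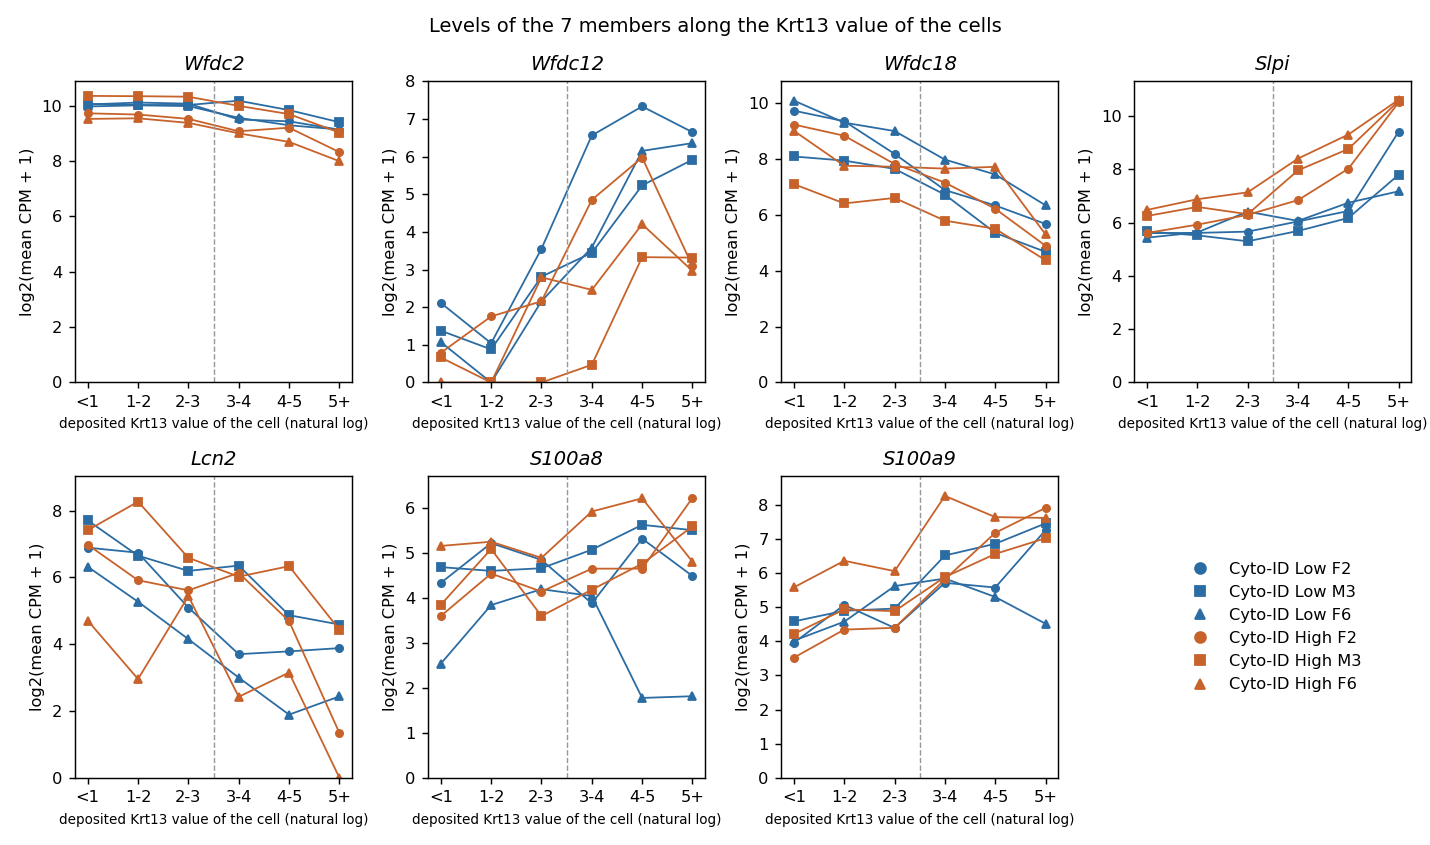
Mean level, as log2(mean CPM + 1), of each member in 6 bins of the cell's deposited Krt13 value (natural log scale), 1 line per library, blue for Cyto-ID Low and orange for Cyto-ID High founders; the dashed line is the value of 3 that separates the layers. Slpi lines of the 3 Cyto-ID High libraries end between 1470 and 1571 CPM in the top bin, and those of the 3 Cyto-ID Low libraries between 144.0 and 684.7 CPM.

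Turning to the founders, the question was whether the Cyto-ID state of the founding cell was followed by a different level of these transcripts 15 days later. Over all kept cells no member passed the test (limma, adjusted p under 0.05), where 19 genes, 0.163% of 11645 tested, did, all higher in the High libraries. An unadjusted p under 0.05 was reached by 2 of the 7 members and by 941 of the 11645 genes. The largest differences among members were those of Wfdc12 and Slpi, in opposite directions. Wfdc12 was at 55.0, 17.2 and 24.9 CPM in the Low libraries and at 12.2, 3.36 and 3.58 CPM in the High libraries, a log2 difference of -2.12 ± 0.46 (SE; limma, adjusted p = 0.24). Slpi was at 101.3, 72.7 and 75.7 CPM against 141.8, 401.1 and 254.9 CPM, a log2 difference of 1.67 ± 0.41 (SE; limma, adjusted p = 0.32). For each of these 2 genes the groups did not overlap, which held for 12.6% of all genes tested, and all 3 same-labelled pairs went the same way. The replicate labels were taken to pair the libraries, and with the label as a block Wfdc12 passed (adjusted p = 0.0060, with 64 genes or 0.55% called) while Slpi did not (adjusted p = 0.15). The other 5 members had adjusted p-values of 0.71 to 0.97 without the block and of 0.28 to 0.85 with it (limma).

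In Krt13-low cells no member passed either (limma; 1 of 7 had an unadjusted p under 0.05, as had 838 of all genes), against 27 genes or 0.23% of 11730 tested. Slpi averaged 48.7 ± 4.38 CPM in Low and 79.97 ± 22.2 CPM in High libraries (SD, n = 3), with a log2 difference of 0.83 ± 0.29 (SE; limma, adjusted p = 0.62). Slpi was the only member whose groups did not overlap there, as 14% of all genes tested did not. Wfdc18 averaged 591.1 ± 317 and 339.6 ± 199 CPM, and the High library was lower in each of the 3 pairs. Without the replicate block the groups overlapped widely, with a log2 difference of -0.70 ± 0.61 (SE; limma, adjusted p = 0.84). With the block the SE was 0.18 (limma, unadjusted p = 0.0054, adjusted p = 0.20). For Slpi the block gave an adjusted p of 0.17 (limma, unadjusted p = 0.0038). No member passed in this layer with the block.

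In Krt13-high cells no member passed (limma, TMM-scaled, no block; 3 of 7 had an unadjusted p under 0.05, as had 842 of all genes), and Slpi came nearest. It averaged 128.8 ± 39.8 CPM in Low and 574.2 ± 199 CPM in High libraries (SD, n = 3). The ratio of the means was 4.46. The ratio within pairs was 1.99 for F2, where the High library was the deeper. It was 6.69 for M3 and 6.30 for F6, where the High library was the shallower. The log2 difference was 2.18 ± 0.38 (SE), just short of the threshold (limma, adjusted p = 0.062, with 32 genes or 0.287% of 11141 called). It passed in 5 of 19 other settings: with the block (adjusted p = 0.0488, with 87 genes or 0.781% called), without the TMM factors (0.040), with cells thinned to 1000 UMIs (0.020), with a Krt13 threshold of 4 (0.026) and without High F2 (0.032). Slpi was the only member without overlap between the groups in this layer, against 11.9% of all genes tested. The share of Krt13-high cells with a Slpi UMI was 5.71% to 6.46% in Low and 11.997%, 18.3% and 23.0% in High libraries after thinning to 1000 UMIs (Wilson 95% half-width at most 2.38 percentage points). Unthinned it was 15.7% to 21.5% and 30.5% to 33.3%. Thinned Krt13-low cells held a Slpi UMI at 3.36% to 8.09%. The libraries held no cell type that should lack Slpi, so the share that free RNA gives was not measured. A few cells held much of the signal: in Krt13-high cells 1 cell carried 2461 of 8882 Slpi UMIs in the High F2 library and 1165 of 4911 in Low F2.

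Wfdc12 in Krt13-high cells averaged 71.8 ± 47.5 CPM in Low and 18.1 ± 17.1 CPM in High libraries (SD, n = 3), and the groups overlapped, since High F2 (37.7 CPM) was above Low M3 (34.8 CPM). The log2 difference was -2.06 ± 0.58 (SE; limma, adjusted p = 0.40), and with the block the adjusted p was 0.0049. In each of the 3 pairs the High library was lower, at 0.30, 0.18 and 0.18 of its partner. In the High F2 library 280 of the 595 Wfdc12 UMIs of this layer were in 1 cell. After thinning, 1.13% to 3.52% of Krt13-high cells in Low and 0.40% to 0.71% in High libraries held a Wfdc12 UMI.

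S100a9 had a log2 difference of 1.05 ± 0.45 (SE; limma, adjusted p = 0.65) in Krt13-high cells, where High F6 was the highest of the 6 libraries and Low F6 the lowest. The difference was 0.61 without High F6 and 0.27 without both F6 libraries. S100a8 had 0.97 ± 0.55 (SE; limma, adjusted p = 0.71), with a pair ratio of 9.31 for F6 but 1.16 for F2 and 0.70 for M3. Wfdc2, Wfdc18 and Lcn2 had adjusted p-values of 0.81 to 1.00 in this layer. Their 95% intervals ran from -1.06 to 0.38, from -1.26 to 1.22 and from -1.08 to 2.69 on the log2 scale. With the replicate block they ran from -0.83 to 0.15, from -0.43 to 0.39 and from 0.16 to 1.45 (limma, adjusted p = 0.46, 0.96 and 0.22). In plain CPM Lcn2 was higher and Wfdc2 lower in the High library of all 3 pairs. The F2 and F6 pairs of Lcn2 rest on few cells. In High F2 1 cell held 1057 of the layer's 1396 Lcn2 UMIs. Low F6 and High F6 were at 4.49 and 5.08 CPM, from 27 and 14 UMIs. Over 19 other settings the Lcn2 difference ran from 0.15 to 1.81.

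**Figure D3:**
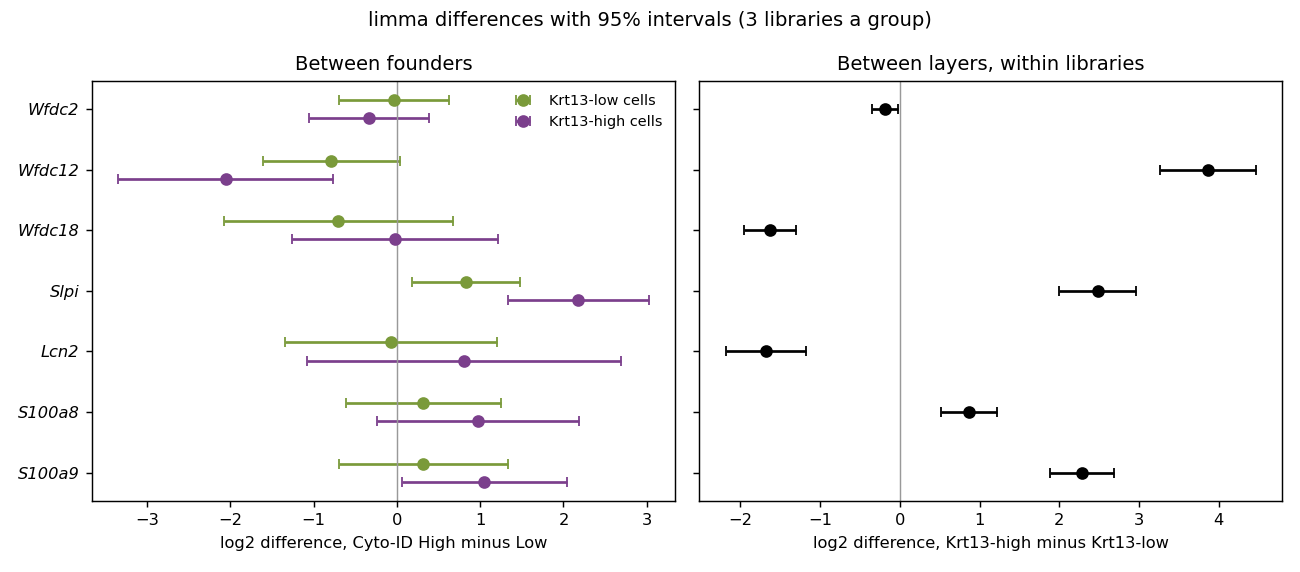
limma log2 differences of the 7 members with 95% intervals: left, Cyto-ID High minus Low in Krt13-low (green) and Krt13-high (purple) cells; right, Krt13-high minus Krt13-low cells within libraries. Slpi is at 0.83 and 2.18 on the left, and on the right the members run from -1.68 (Lcn2) to 3.86 (Wfdc12).

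The difference between the layers in the response to founders was tested directly, as the founder difference in Krt13-high minus that in Krt13-low cells. Slpi was the only member that passed, at 1.37 ± 0.21 on the log2 scale (SE; limma, adjusted p = 0.024), among 24 genes or 0.198% of 12138 tested. The call did not hold under 9 of 19 other settings, among them leaving out Low F6 (1.14, adjusted p = 0.11), High M3 (1.17, adjusted p = 0.12) or High F6 (1.42, adjusted p = 0.13). With the replicate block 257 genes or 2.12% passed, among them Slpi (adjusted p = 0.00025), Wfdc12 at -1.32 (adjusted p = 0.018), Wfdc18 at 0.70 (adjusted p = 0.0011) and Lcn2 at 0.89 (adjusted p = 0.042). Without the block those 3 had adjusted p-values of 0.28 to 0.46 over all 6 libraries, but Wfdc12 (-1.79, adjusted p = 0.049) and Lcn2 (1.41, adjusted p = 0.042) also passed without Low M3, and Wfdc18 (0.97, adjusted p = 0.036) without High F2.

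Genes whose level followed that of a member most closely were ranked over the 36 points that 6 libraries and 6 Krt13 bins give, among 6956 genes averaging 10 CPM or more. Points of a library share its depth, so the correlations are descriptions. For Slpi these were Klk12, a kallikrein protease (r = 0.93), Dynll1 (r = 0.93) and Serpinb12, a protease inhibitor of the serpin family (r = 0.92). For Wfdc12 they were Aldh1a3, a retinaldehyde dehydrogenase, Arg1, the arginase, and Sptssa, all at r = 0.91. Wfdc2 went with Tmem9, Gpx4 and Tmem176b (r = 0.93 to 0.94), Wfdc18 with Tppp, Axl and Morf4l1 (r = 0.92 to 0.93), and Lcn2 with Vdac3 (r = 0.91) and Eid1 (r = 0.89). S100a9 went with Teddm3, Insig1 and Pinlyp (r = 0.83 to 0.86), and S100a8 more loosely with Uchl3, Cyb5a and Zfp706 (r = 0.69 to 0.70). Among the members themselves the highest correlations were Wfdc2 with Lcn2 (r = 0.82), Slpi with S100a9 (r = 0.79) and S100a8 with S100a9 (r = 0.62), and the lowest was Wfdc2 with Slpi (r = -0.80).

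Other protease inhibitors of the epithelium were mostly higher in the Krt13-high layer. Of 22 tested, 15 were called higher and 5 lower, where 30.6% and 29.2% of all genes tested were (median log2 difference 1.01, against -0.01 for all genes). Serpinb11 at 4.04, Cst6 at 3.92 and Serpinb1a at 3.17 led the higher ones. Among the lower ones were Serpinh1, a collagen chaperone, at -1.94 and Cst3 at -0.18. Of the other WAP genes, 19 were in the tables, 2 had enough signal to be tested and both were higher. The proteases that such inhibitors face went the same way, with 22 of 25 higher and 2 lower (median 2.16), led by Prss27 at 3.79, Tmprss11d at 3.76 and Tmprss11b at 3.39, while Klk8 was lower at -1.26. Without the TMM factors the counts were 13 higher and 7 lower for inhibitors and 19 and 4 for proteases.

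Other antimicrobial proteins were divided between the layers, with 8 of 14 higher and 6 lower (median 0.75), where 30.6% and 29.2% of all genes tested were. The beta-defensin Defb14 (3.52), the iron-binding lactoferrin Ltf (3.14) and the peptidoglycan-binding Pglyrp1 (2.21) were higher in Krt13-high cells, and Tslp (-1.34), the beta-defensin Defb1 (-1.03) and Adm (-0.95) were lower. Ltf was the most abundant of these 6, at 539.2 CPM in Krt13-low and 3629 CPM in Krt13-high cells. Of the other S100 genes, 8 of 11 were higher (6 without the TMM factors) and 1 lower (3 without them), with S100a7a at 2.03, S100a16 at 1.27 and S100a14 at 1.18, and with S100a4 at -1.38.

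The pathways of IL-17, the IL-1 family, NF-kB, STAT3 and C/EBP are known to induce some of these secreted proteins. Of 36 tested genes of this signalling, 19 were higher and 5 lower in the Krt13-high layer (median 0.37), where 30.6% and 29.2% of all genes tested were. Without the TMM factors the counts were 13 higher and 16 lower, where 1821 of all 12138 genes were higher and 6960 lower. The cytokine Il1a (2.72), the factor Elf3 (2.66) and the chemokine Cxcl5 (2.03) led the higher genes, and Cebpd (-0.96), Cebpa (-0.36) and Relb (-0.30) the lower ones. Of 10 tested receptors and partners, 4 were higher and 2 lower (median 0.23, and 2 and 3 without the TMM factors), close to the shares of all genes tested. Anxa2, a membrane protein that binds Slpi, was at 1.36, and Grn, a substrate that Slpi protects from elastase, was at 0.32 but at -0.09 without the factors.

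Few of these genes passed the test between founders. Over all kept cells no listed inhibitor, protease, antimicrobial, S100, receptor or signalling gene passed in limma, and 14 of 115 tested had an unadjusted p under 0.05, against 941 of 11645 among all genes. In Krt13-low cells it was 12 of 108, against 838 of 11730, and in Krt13-high cells 20 of 114, against 842 of 11141. Spink5, an inhibitor of kallikreins, passed in Krt13-low cells, at 92.5 ± 14.4 CPM in Low and 296.5 ± 43.0 CPM in High libraries (SD, n = 3; limma, adjusted p = 0.012). Serpinb12 passed in Krt13-high cells, at 2.01 ± 1.97 and 25.5 ± 14.2 CPM (SD, n = 3; limma, adjusted p = 0.049). In the test of the layers' difference, Defb1 passed at 1.62 (limma, adjusted p = 0.0028), Spink5 at -1.29 (adjusted p = 0.0031) and Csta1 at -1.18 (adjusted p = 0.0061). Of 19 tested suprabasal markers, 3 were called higher in Krt13-high cells of High libraries (median 0.23), Krtdap at 4.18, Sprr1b at 3.51 and Sbsn at 2.26. In Krt13-low cells 2 of 17 were called higher (median 0.40), Krtdap at 5.07 and Sprr1b at 3.13, and over all kept cells these were called too, at 4.27 and 3.24. The shares called among all genes tested were 0.287% in Krt13-high cells, 0.23% in Krt13-low cells and 0.163% over all kept cells. In the test of the layers' difference Sbsn was higher at 1.11 and Tgm3, a transglutaminase of the cornified envelope, lower at -1.63 (limma, adjusted p = 0.0020), with a list median of -0.13. In Krt13-high cells Krtdap, a secreted protein of differentiating keratinocytes, was at 168.4, 114.1 and 56.4 CPM in the Low and 1678, 1244 and 2851 CPM in the High libraries, and Sbsn at 23.3, 26.0 and 17.2 CPM and 87.3, 113.3 and 113.9 CPM. In Krt13-low cells Krtdap was at 45.98, 15.1 and 7.19 CPM in the Low and 500.6, 334.3 and 994.5 CPM in the High libraries. Their part in the Slpi difference was not tested.

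Neutrophils and macrophages are the usual rich sources of S100a8, S100a9 and Lcn2 in tissue. Ptprc (CD45), carried by all leukocytes, was at 0 in each of the 6 libraries, as were the neutrophil genes Csf3r, Elane, Camp, Retnlg and Cd177. Of 13 neutrophil markers 10 stayed below 1 CPM in every library, and the summed level of the list, 1839 to 2896 CPM in Low and 393.8 to 1881 CPM in High libraries, was nearly all Ltf, which gland and squamous epithelium also express. The 3 of these markers with enough signal to be tested, Ltf among them, were higher in the Krt13-high layer. So were 30.6% of all genes tested. Of 12 macrophage and dendritic cell markers, 10 stayed below 1 CPM in every library and Adgre1 and the C1q genes were at 0. The list summed to 85.0 to 166.4 CPM in Low and 54.9 to 139.3 CPM in High libraries, led by H2-Ab1 and Cd68, the latter higher in the Krt13-high layer at 1.39. Lymphocyte, fibroblast and endothelial lists summed to at most 1.83, 5.19 and 0.93 CPM. Markers of glandular and simple epithelium, which also secretes Wfdc2, Slpi and Lcn2, summed to 2107 to 3448 CPM in Low and 522.5 to 1872 CPM in High libraries, led by Krt7, Krt19 and Krt18, with the mucin Muc5b and Tff3 at 0. Between layers 7 of its 9 tested genes were higher in Krt13-high cells and 2 lower (median 1.20). Among all genes tested, 30.6% were higher and 29.2% lower. The membrane mucin Muc4 was at 3.61, Krt19 at 2.36 and Krt7 at 2.26, and the factor Sox9 at -0.66. No gene of this list passed between founders in limma (2 of 8 tested had an unadjusted p under 0.05 over all cells, against 941 of 11645 among all genes), and its part in the members' levels was not tested.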

How the data were processed

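The authors deposited 1 table per library, with values on a natural log scale: ln(1 + x), where x is the share of a cell's UMIs that fall on a gene, times 10000. This unit was read from the values: 100% were whole multiples of the cell's smallest step within a tolerance of 1e-06, so UMIs were recovered. Cell Ranger 6.0.0, Seurat 4 and builds mm10 and GRCm38 are named in the submitters' processing notes; filters before deposit are not given in the sources used here. Deposited barcodes held at least 500 UMIs, and cells with fewer than 500 detected genes were left out here. No doublets were removed; the 5% of cells with most UMIs were dropped in an alternative.

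CPM were averaged over the cells of each library and layer, scaled by TMM (30% of log ratios and 5% of levels trimmed) and tested as log2(CPM + 1) with limma 3.58.1 (R 4.3.3) with a mean-variance trend, two-sided, with Benjamini-Hochberg adjustment over all genes tested and a threshold of 0.05. Differences are on this scale, which understates low genes. A gene was tested where 3 or more libraries reached 1 CPM (for both layers together, in at least 3 of the library-by-layer means). Layers were compared within libraries, and founders without a replicate block. The code was tested on simulated data. A cell's shares of UMIs were compared after thinning to 1000 UMIs, which left out 347 shallower cells; intervals are Wilson 95% and cover counting error only.

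Deviations from the group means, over 8876 genes averaging 5 CPM or more, gave correlations for libraries of equal label of 0.76 (F2), 0.57 (M3) and 0.14 (F6), each above 0.1, so the labels in the sample titles were taken to pair them; Low F2 with High F6 was at 0.17, above the F6 pair.

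The members and lists were chosen with earlier results of these data known. The text names all 7 members, from each list up to 3 called genes in each direction with the largest difference and at least 10 CPM, and the 3 genes most like each member, of which 1 is not reported here. Promoter sequences are from RefSeq (GRCm38.p6), in which all 7 members were matched, and gene positions from GENCODE vM21. Alternatives changed the pseudocount, low-value filter, scaling, cell filter, depth, Krt13 threshold and trend, added the block and left out libraries.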

Additional observations from a re-analysis of the deposited data

Results flagged for a closer look

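The founder difference of Slpi was not equal in the layers by a direct test of the difference between them. It was 1.37 larger on the log2 scale in Krt13-high than in Krt13-low cells (limma, adjusted p = 0.024, 3 libraries a group), and adjusted p ran from 0.00025 to 0.61 over 19 other settings. Within each of the 3 pairs, the ratio of Cyto-ID High to Low was larger in Krt13-high cells (1.99, 6.69 and 6.30 for F2, M3 and F6) than in Krt13-low cells (1.19, 1.81 and 1.91).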

How the results depend on the processing

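Of 644 values of members under other settings, 593 kept their direction and their side of the threshold, 24 turned direction, 18 newly passed and 9 no longer passed. No value that had passed turned direction. The number of genes called between layers stayed between 5522 and 8781 in all settings run. Calls between founders were less stable. Over all kept cells (19 called) there were 5 with a pseudocount of 0.1 CPM, 0 without a filter on low values (1343 at an unadjusted p under 0.05 in limma), 64 with the replicate block and 6 to 17 without 1 library. In Krt13-low cells (27) there were 2 without the filter, 16 with at least 1000 detected genes per cell, 81 with the block and 6 to 28 without 1 library. In Krt13-high cells (32) there were 6 with 0.1 CPM, 1 without the filter, 21 from summed UMIs, 20 with a Krt13 threshold of 2, 87 with the block and 4 to 30 without 1 library. For the difference between layers (24) there were 9 with 0.1 CPM, 0 without the filter (1384 unadjusted in limma), 2 with 1000 genes, 9 without the deepest 5% of cells, 0 without the limma trend (1007 unadjusted), 9 with a Krt13 threshold of 4, 257 with the block and 4 to 101 without 1 library. Without both F6 libraries, a setting chosen after the pairing was seen, no gene was called over all cells, in Krt13-low or in Krt13-high cells (275, 268 and 262 unadjusted in limma) and 3 for the difference between layers.

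The block calls contained 18 of the 19, 27 of the 27, 32 of the 32 and 24 of the 24 genes. Slpi in Krt13-high cells stayed between 1.95 and 2.58 on the log2 scale, past the threshold in 5 of 19 settings. Its difference between layers lost the call without the filter (1.32), from summed UMIs (1.51), with 1000 genes (1.60), without the trend (1.37), with a threshold of 4 (1.23), without both F6 libraries (1.23) and without Low F6, High M3 or High F6.

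Direction turned only for members that had not passed. Over all kept cells, Lcn2 (0.12) turned to -0.051 with 1000 genes and S100a8 (0.56) to -0.31 without both F6 libraries; without 1 library Lcn2 ran from -0.43 to 0.79, Wfdc2 from -0.35 to 0.045 and Wfdc18 from -1.08 to 0.18. In Krt13-low cells, Lcn2 (-0.07) turned to 0.11 from summed UMIs and S100a8 (0.32) to -0.087 after thinning; without both F6 libraries Wfdc2 was 0.10, Lcn2 0.34, S100a8 -0.47 and S100a9 -0.19. Without 1 library Wfdc2 ran from -0.30 to 0.14, Lcn2 from -0.69 to 0.62, S100a8 from -0.090 to 0.60 and S100a9 from -0.25 to 0.81. In Krt13-high cells Wfdc18 (-0.02) turned to 0.080 with a threshold of 4 and ran from -0.54 to 0.52 without 1 library, and S100a8 (0.97) turned to -0.057 without both F6 libraries. S100a9 in this layer (1.05) kept its direction but ran from 0.27 without both F6 libraries to 1.43 without Low M3. The causes were not tested. Wfdc12 rested on few UMIs, 1 to 138 per library in Krt13-low cells. So did Lcn2 and S100a8, with 14 and 26 UMIs in the lowest Krt13-high library.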
